A study of Mus musculus with 3 samples.

Results

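Glycolysis splits glucose into pyruvate in the cytosol, and the pentose phosphate pathway draws on its first sugar phosphate to make NADPH and ribose 5-phosphate. Most steps of glycolysis can be carried out by several isozymes, which are encoded by separate genes and differ in the tissues that use them. Fibroblasts in culture are known to take up glucose and to release lactate, and lactate dehydrogenase and the pyruvate dehydrogenase kinases act where pyruvate turns to lactate or enters the mitochondria.

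The 41 genes described here encode these enzymes and were picked by gene name from 55573 genes. They matched 42 rows of the expression table, because Aldoa is listed in 2 rows. UMI-RNAseq was measured in 3 libraries of NIH3T3, an established mouse fibroblast line that was grown in DMEM with serum and was neither treated nor modified. The libraries share 1 condition, so no conditions could be compared, and the sources do not state whether they came from separate cultures, so p-values and SDs may cover technical spread only. They are named library 1, library 2 and library 3 after their replicate numbers. Values are FPKM, which scale a gene's fragments by its length in kilobases and by 1000000 counted fragments.

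The FPKM rested on 14423209, 13959723 and 14307241 counted fragments in libraries 1, 2 and 3. The extraction text in the labels mentions retina and a TruSeq kit, although the cell line and source labels name a fibroblast line and the methods describe UMI libraries. Removal of duplicates was not tested here, and if any remained, fragments are not independent molecules and the counting error given below is too small. Of 12 fibroblast markers, 11 had a mean of at least 1 FPKM, led by Fn1 at 4377 FPKM, while 1 of 12 retina markers did, Gnat2 at 1.34 FPKM. The summed retina markers ranged from 2.22 to 2.80 FPKM over the libraries, and Nrl was at 0. None of the markers of testis germ cells (7, led by Prm1 at 0.356 FPKM), skeletal muscle (6, led by Tnnt3 at 0.357) or liver (5, led by Alb at 0.0773) had a mean of at least 1 FPKM.

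One member cannot be read from its own row, and its sequence is therefore shown first. Gapdh encodes glyceraldehyde-3-phosphate dehydrogenase, which oxidizes glyceraldehyde 3-phosphate, and is widely used as a reference gene. Its position is chromosome 6, 125161715 to 125166467, minus strand (GRCm38). Its row had 29.02, 29.3 and 29.6 FPKM in libraries 1, 2 and 3, which rest on 396, 387 and 400 fragments. The processed pseudogene Gm13394, at 28933610 to 28934609 on the minus strand of chromosome 2, had 532, 518 and 506 FPKM. A second one, Gm12033, at 20335012 to 20336013 on the minus strand of chromosome 11, had 177, 182 and 174 FPKM. Each of these copies was higher than Gapdh in every library, and on average they lay 17.7-fold and 6.06-fold above it.

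Both copies differ from the Gapdh coding sequence at 1 base. Positions are counted from 1 at the start codon of the annotated Gapdh isoform with the longest coding sequence, which has 1080 nt. Over the 1000 bases aligned, Gm13394 carries A424C. Over 1002 bases, Gm12033 carries T582C. The lines below give 61 coding bases around each position from the GENCODE M21 transcripts (GRCm38), written 5′ to 3′ on the strand of each gene, with the differing position in capitals. They are shown because reads within the aligned bases that miss both positions match the gene and both copies equally.
Gapdh, position 424: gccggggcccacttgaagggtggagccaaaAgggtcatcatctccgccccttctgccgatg
Gm13394, position 424: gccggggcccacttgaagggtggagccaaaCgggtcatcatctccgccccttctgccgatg
Gm12033, position 424: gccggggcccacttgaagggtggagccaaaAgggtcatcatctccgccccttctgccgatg
Gapdh, position 582: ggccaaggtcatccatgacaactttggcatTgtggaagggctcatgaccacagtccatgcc
Gm13394, position 582: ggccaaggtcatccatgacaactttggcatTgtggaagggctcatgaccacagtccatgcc
Gm12033, position 582: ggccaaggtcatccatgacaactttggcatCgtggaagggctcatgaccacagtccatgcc

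Each coding sequence was cut into overlapping 75-nt words, and a word was called shared if any annotated transcript of a different gene holds it on either strand. For Gapdh, 946 of 1006 words (94.0%) were shared, and single words occurred in up to 49 other genes. A copy was defined as a gene elsewhere that shares at least 10% of its own words with the member. Gapdh had 69 copies, 67 of them pseudogenes, of which 60 had fragments and 7 had a mean of at least 1 FPKM. Summed, the copies had 730.3, 718 and 701 FPKM in libraries 1, 2 and 3. They held 96.1% ± 0.111 (SD, n = 3) of the sum of gene and copies, which was 746 ± 14.2 FPKM and 25.5-fold above the Gapdh row. In fragments over all libraries, 30599 were counted in the copies and 1183 in Gapdh.

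Near identity with Gapdh did not go with one level. Of the 62 copies that aligned over at least 900 bases, 15 had at most 5 substitutions, and their means ranged from 0 to 519 FPKM. Gm5559 and Gm12070, with 1 substitution each, had means of 4.60 and 3.23 FPKM. Gm10359 and Gm12671, with 0 substitutions, had means of 0.0471 and 0.0231 FPKM. Whether the fragments counted in the copies came from Gapdh mRNA or from the copies themselves was not tested, since the files hold no reads. The level of Gapdh mRNA therefore cannot be told apart from that of its copies, and the row value is given below as deposited.

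Of the 41 members, 36 (87.8%) had a mean of at least 1 FPKM, beside 49.2% of the 21980 protein-coding rows of the table. Their median was 57.9 FPKM, beside 17.5 FPKM over all genes of at least 1 FPKM. Pkm alone exceeded 1000 FPKM, 12 members had 100 to under 1000 FPKM, 14 had 10 to under 100 and 9 had 1 to under 10. Aldoc had fragments in each library but a mean under 1 FPKM, and Hk3, Pgk2, Pklr and Ldhc were at 0 in all libraries. Together the 42 rows held 0.948%, 0.957% and 0.9498% of the summed FPKM and 0.754%, 0.746% and 0.742% of the fragments in libraries 1, 2 and 3. Of the members, 2 were among the 100 highest genes (Pkm and Eno1) and 8 among the 500 highest.

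**Figure D1:**
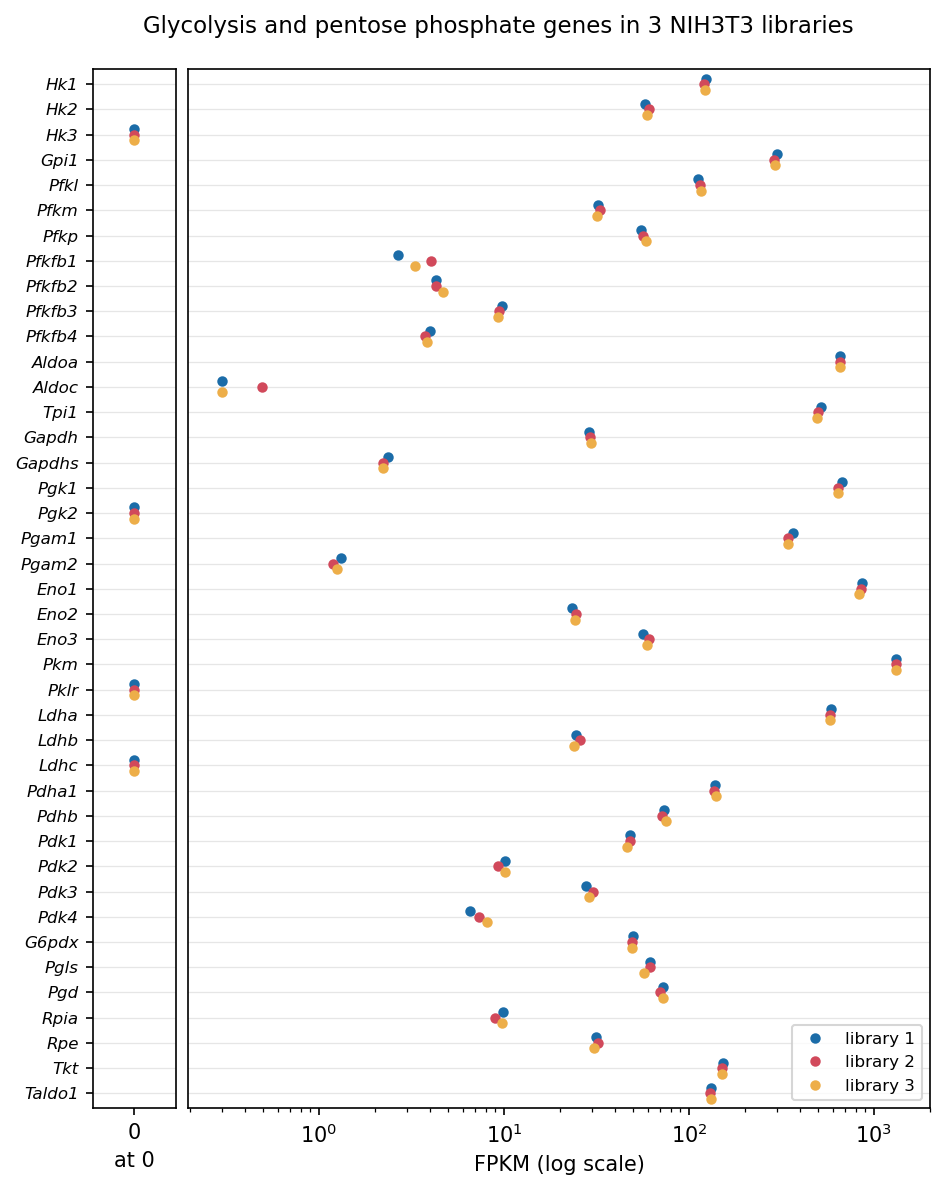
FPKM of the 41 members in libraries 1, 2 and 3 (colored points, log axis), in the order of the pathways from hexokinase to transaldolase, with members at 0 in the narrow panel on the left. Pkm lies highest at 1314 to 1325 FPKM, Hk3, Pgk2, Pklr and Ldhc lie at 0, and the points of most members nearly coincide.

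The preparatory phase of glycolysis spends ATP to turn glucose into triose phosphates. Hexokinase phosphorylates glucose and keeps it in the cell. Hk1 (chromosome 10, 62268855 to 62379908, minus strand), the isozyme found in most tissues, had 123, 121 and 122 FPKM in libraries 1, 2 and 3. Hk2 (chromosome 6, 82725025 to 82774454, minus strand), the insulin-responsive isozyme of muscle and fat, had 57.9, 60.9 and 59.2 FPKM. The 2 did not overlap, and Hk1 was 2.06-fold ± 0.0705 (SD, n = 3) above Hk2. Hk3, known from blood cells, had 0 fragments. In library 2, the shallowest, 3 fragments would be 0.103 FPKM, and the exact 95% interval of 0 fragments reaches 0.127 FPKM. Per fragment, without the division by length, Hk1 was only 1.13-fold above Hk2, since the length used for Hk2 (2351 nt) exceeds that for Hk1 (1297 nt).

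Gpi1, glucose-6-phosphate isomerase, makes fructose 6-phosphate and has no isozyme. It had 298, 289 and 290.5 FPKM in libraries 1, 2 and 3 (mean 293 ± 4.75, SD).

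Phosphofructokinase commits the sugar to glycolysis, and its subunits are named for liver (Pfkl), muscle (Pfkm) and platelet (Pfkp). Pfkl (chromosome 10, 77986947 to 78010083, minus strand) had 112, 115 and 116 FPKM, Pfkp 55.3, 56.8 and 58.7, and Pfkm 32.3, 33.0 and 31.7. All 3 subunits were present without overlap, and Pfkl held 56.1% ± 0.0528 (SD, n = 3) of the sum. Pfkl was 2.003-fold ± 0.0291 above Pfkp, and 1.22-fold above it per fragment, without the division by length. The order of the lower subunits rests on the gene length: with the longest annotated isoform, Pfkm had 21.8 FPKM and Pfkp 13.0, because the longest isoform of Pfkp is 4.38 times its mean length, the largest such ratio among the members.

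The bifunctional enzymes PFK-2/FBPase-2 make and break fructose 2,6-bisphosphate, the main activator of phosphofructokinase. Pfkfb3, the form with high kinase activity that is known from proliferating cells, had 9.78, 9.46 and 9.36 FPKM. Pfkfb2, known from heart, had 4.29, 4.31 and 4.66 FPKM, and Pfkfb4 had 3.97, 3.77 and 3.84. Pfkfb1, known from liver and muscle, had 2.67, 4.06 and 3.33 FPKM from 51, 75 and 63 fragments, and overlapped Pfkfb4. Pfkfb3 held 45.1% ± 1.89 (SD, n = 3) of the sum of these low values and was 2.16-fold ± 0.141 above Pfkfb2. In FPKM this was the lowest share of a leading isozyme, but without the division by length the share of Pfkl was lower, 44.03% against 48.97% for Pfkfb3. Pfkfb2 shares 64.1% of its coding words, with the overlapping gene model Gm29427, which was at 0. Whether fragments in this overlap were counted in either gene was not tested, so the Pfkfb2 value, its ratio and the shares are those of the row as deposited.

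Aldolase cleaves fructose 1,6-bisphosphate. Aldoa (chromosome 7, 126795234 to 126800751, minus strand), the muscle and general form, had 655, 658 and 657 FPKM in libraries 1, 2 and 3. Its CV of 0.242% was the lowest among the members. It lay below the 1.02% that counting error alone gives at this depth, so it does not set Aldoa apart. A second row of the same name, upstream on the same strand (126800790 to 126809108), had 7.02, 6.42 and 5.72 FPKM. Aldoc, the brain form, had 0.299, 0.494 and 0.301 FPKM from 5, 8 and 5 fragments, with exact 95% intervals that overlapped (0.0970 to 0.697, 0.213 to 0.973 and 0.0978 to 0.703 FPKM). These intervals and all floors cover counting error only. Aldoa was 1902-fold ± 494 (SD, n = 3) above Aldoc, a ratio whose size rests on those few fragments.

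Tpi1, triosephosphate isomerase, interconverts the triose phosphates and has no isozyme. It had 521, 502 and 493 FPKM, with the highest value in library 1.

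In the payoff phase the triose phosphates are turned into pyruvate and ATP is made. At its first step Gapdh, read from its own row, was 12.9-fold ± 0.628 (SD, n = 3) above Gapdhs, the isozyme of sperm, which had 2.38, 2.21 and 2.22 FPKM from 40, 36 and 37 fragments. With the longest isoform of each gene the ratio fell to 4.64-fold, and with the copies added to Gapdh it was 329-fold. The copies were added only after their values were known.

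Phosphoglycerate kinase makes the first ATP. Pgk1 (chromosome X, 106187100 to 106203699, plus strand) had 669.9, 643 and 637 FPKM, and Pgk2, the testis isozyme, had 0 fragments. Against a floor of 3 fragments for Pgk2 in each library, Pgk1 was at least 4866-fold higher, the ratio in library 2, where it was smallest. Phosphoglycerate mutase moves the phosphate group. Pgam1 (chromosome 19, 41911923 to 41918660, plus strand), the brain-type and general isozyme, had 363, 342 and 343 FPKM, while Pgam2, the muscle isozyme, had 1.32, 1.19 and 1.25 FPKM from 16, 14 and 15 fragments. Pgam1 was 279-fold ± 6.63 (SD, n = 3) above Pgam2.

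Enolase makes phosphoenolpyruvate. Eno1 (chromosome 4, 150236721 to 150248879, plus strand), the general isozyme, had 859, 848 and 834 FPKM. Eno3, the muscle isozyme, had 56.6, 60.9 and 59.3 FPKM, and Eno2, the neuronal isozyme, had 23.4, 24.5 and 24.2. The 3 members did not overlap, Eno1 was 14.4-fold ± 0.686 (SD, n = 3) above Eno3, and it held 91.1% ± 0.345 of their sum. Eno1b, a coding gene that shares sequence with Eno1 and is no member, had 146, 142 and 142 FPKM, above Eno3 in every library. It was left out of this ratio and sum.

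Pyruvate kinase makes the last ATP of the pathway. Pkm (chromosome 9, 59656368 to 59679375, plus strand), the gene of the M1 and M2 forms, had 1318, 1325 and 1314 FPKM and was the highest member, at rank 32 of the 12905 genes with a mean of at least 1 FPKM. The gene-level values do not tell its M1 and M2 forms apart. Pklr, the gene of the liver and red cell forms, had 0 fragments, and Pkm was at least 8286-fold above the floor of 3 fragments.

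Lactate dehydrogenase turns pyruvate into lactate and returns NAD. Ldha (chromosome 7, 46841475 to 46855627, plus strand), the gene of the M subunit, had 585, 582 and 582 FPKM. Ldhb, the gene of the H subunit, had 24.7, 25.8 and 24.1 FPKM, and Ldhc, the testis form, had 0 fragments, where the exact 95% interval reaches 0.269 FPKM in library 2. Ldha was 23.5-fold ± 0.855 (SD, n = 3) above Ldhb and held 95.9% ± 0.145 of the sum.

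The pyruvate dehydrogenase complex takes pyruvate into the citrate cycle, and its kinases inhibit it. The subunits Pdha1 and Pdhb of the first enzyme of the complex had 138, 136 and 140.4 FPKM and 73.3, 72.0 and 75.2 FPKM in libraries 1, 2 and 3. Pdk1, a kinase known to be induced by low oxygen, had 47.8, 47.8 and 46.4 FPKM, and Pdk3 had 27.7, 30.4 and 28.95. Pdk2, the most widespread form, had 10.1, 9.25 and 10.1 FPKM, and Pdk4, which is induced by fasting, had 6.56, 7.31 and 8.12. The 4 kinases did not overlap in FPKM, but in fragments per 1000000, without the division by length, Pdk4 (10.9) lay above Pdk2 (9.22). Pdk1 was 1.63-fold ± 0.0799 (SD, n = 3) above Pdk3 and held 50.6% ± 1.14 of the sum. In FPKM this was the smallest of the 11 ratios, but without the division by length it was 2.83-fold, and that of Hk1 to Hk2 was smaller. With the longest isoform, in contrast, Pdk1 was only 1.15-fold above Pdk3 and held 43.4% of the sum.

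In each of the 11 steps with several members, the leading isozyme was higher than the second in 3 of 3 libraries. Leader and second were ranked by their means over these same libraries, so neither this count nor the test below is independent of that choice. Flipping the signs of the 3 log2 ratios of a step in every way (exact permutation test, two-sided) gave p = 0.25 at each step, and 0.25 after Benjamini-Hochberg adjustment over the 11 steps. No smaller p exists with 3 libraries, and 0.05 was out of reach. The leading isozyme held more than 90% of the sum at 7 steps, whereas at hexokinase, phosphofructokinase, PFK-2/FBPase-2 and the kinases of pyruvate dehydrogenase it held 45.1% to 67.3%. The 7 steps include GAPDH, read from the Gapdh row. At GAPDH the share was 82.3% with the longest isoform of each gene and 99.7% with copies added. They also include enolase, where Eno1b, at 143 FPKM on average, lay above the second member Eno3 but is no member. With Eno1b in the sum, the share of Eno1 would be lower, and this was not computed.

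**Figure D2:**
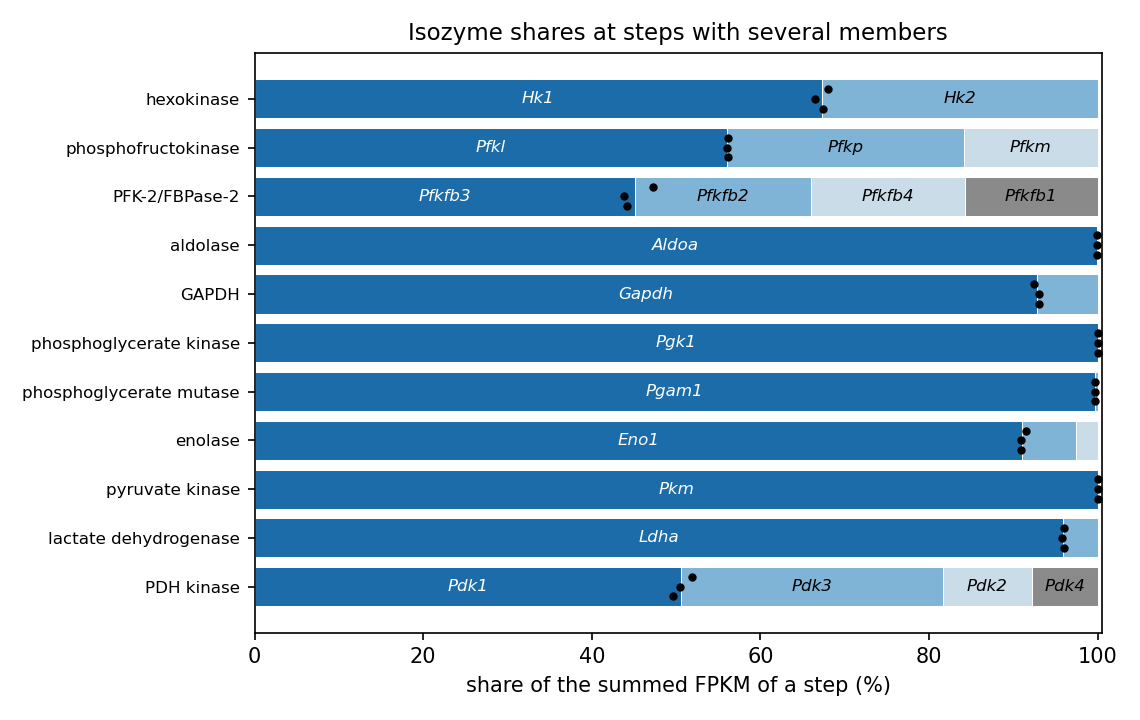
Mean share of each isozyme in the summed FPKM of its step (bars, %, darkest for the highest member, lighter or grey for the lower ones), with the share of the highest member in libraries 1, 2 and 3 as black points. The highest member holds nearly the whole sum at aldolase, phosphoglycerate kinase, phosphoglycerate mutase and pyruvate kinase, and 45.1% at PFK-2/FBPase-2.

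The oxidative branch of the pentose phosphate pathway makes NADPH. G6pdx, glucose-6-phosphate dehydrogenase, which controls entry to the pathway, had 49.7, 49.0 and 49.5 FPKM. Pgls, the lactonase of the next step, had 61.3, 61.7 and 57.5 FPKM, and Pgd, which releases ribulose 5-phosphate, had 72.8, 69.9 and 72.5. The 3 genes lay between 49.4 and 71.7 FPKM on average, without overlap. In the non-oxidative branch, which exchanges carbon with glycolysis, the means spread from 9.57 to 151 FPKM. Tkt, transketolase, had 153, 151 and 150.3 FPKM, and Taldo1, transaldolase, had 131, 130.0 and 131. Rpe, the epimerase of ribulose 5-phosphate, had 31.6, 32.1 and 30.7 FPKM, and Rpia, the isomerase that yields ribose 5-phosphate, had 9.91, 8.99 and 9.82. Both enzymes that transfer carbon units between sugars thus lay above the isomerase and the epimerase in every library.

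Along the main line of glycolysis, the highest gene of each step had a median of 293 FPKM in the preparatory phase (114 to 657) and 649.9 FPKM in the payoff phase (29.3 to 1319), the low end of the latter being the Gapdh row. Members were also grouped by the tissue they are known for, from textbook knowledge and without a test. Pfkfb1 and Pklr were assigned to liver alone, although each is described above with a further tissue. Pfkl, Pfkp, Hk2 and Pfkfb2, though described above by a tissue, were placed in no such group. Their means of 114, 56.9, 59.4 and 4.42 FPKM each lay above the median given next for the members assigned to single tissues. Of the 11 members assigned to single tissues, 6 had a mean of at least 1 FPKM, with a median of 1.25 FPKM, beside 49.2% of protein-coding rows. All 11 members assigned to broad expression did, with a median of 505 FPKM. The groups overlapped, since Eno3 (58.9 FPKM) and Pfkm (32.4) lay above the Gapdh row and Ldhb (24.9). Muscle isozymes were above 1 FPKM in 3 of 3 cases (Eno3, Pfkm and Pgam2), while none of the 6 skeletal muscle markers was. Of the testis isozymes, 1 of 3 was (Gapdhs, at 2.27 FPKM), as was 1 of 2 for liver (Pfkfb1) and 1 of 2 for brain (Eno2), and Hk3 of blood cells was not.

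Ordered by mean FPKM, the 36 members of at least 1 FPKM form 35 neighboring pairs, of which 11 overlapped in their ranges over the libraries. Aldoa and Pgk1 overlapped at 657 and 649.9 FPKM, with Pgk1 higher in library 1. From Pgls at 60.2 FPKM down to Pfkp at 56.9, with Hk2 and Eno3 between them, each gene overlapped the next. The other overlapping pairs were Pdhb and Pgd, Pfkm and Rpe, Gapdh and Pdk3, Ldhb and Eno2, Pdk2 and Rpia, Rpia and Pfkfb3, and Pfkfb4 and Pfkfb1. The top of the order in FPKM, in contrast, was separated. Pkm was 1.56-fold above Eno1, and Eno1 was 1.29-fold above Aldoa, each in 3 of 3 libraries. The place of Eno1 rests on the gene length, which is the same in every library. With the longest isoform of each gene, Eno1 had a mean of 390 FPKM, below Aldoa at 440 and Pgk1 at 513. Without the division by length, Eno1 lay above Aldoa but below Pgk1. Pkm stayed the highest member in each of these settings.

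In 32 of the 37 members with fragments, the highest library exceeded the lowest by at most 10%. The same count was not made over all genes, and most members are deep, so it does not set the members apart. Over the 32 members with a mean of at least 100 fragments, the median CV was 2.21%. Fragments were compared with the library totals by a chi-square statistic, against a limit that 5% of genes exceed by counting error alone. Of the 36 members with a mean of at least 10 fragments, 3 (8.33%) exceeded it, beside 9.53% of the 13763 genes of that depth, so the members' share was near the background. The 3 were Pgk1, Pgam1 and Tpi1. Each was highest in library 1, by 1.05-fold to 1.06-fold over its lowest library, and none exceeded the limit when library 1 was left out.

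**Figure D3:**
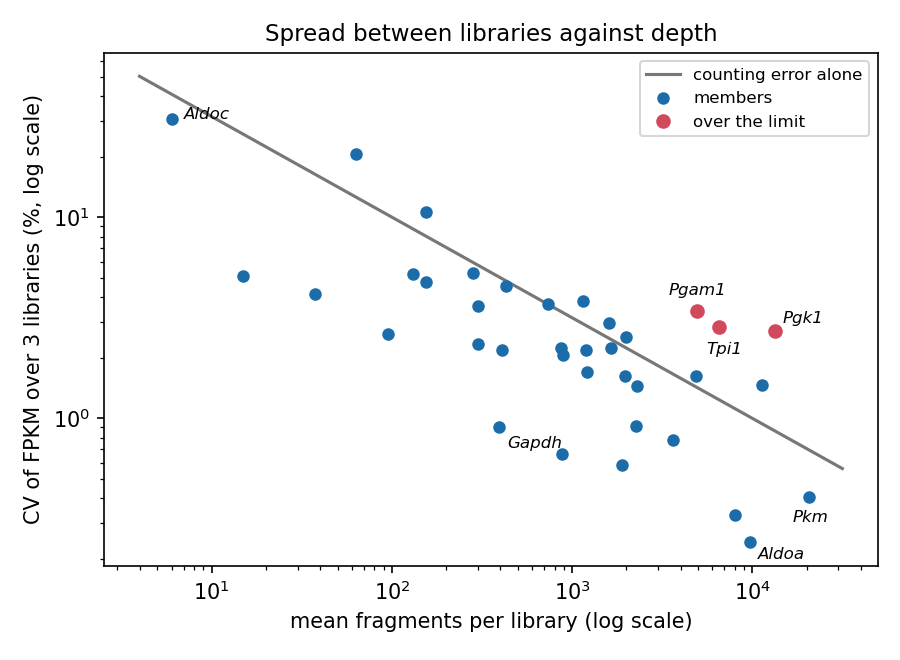
Coefficient of variation of FPKM over libraries 1, 2 and 3 (%, log axis) against the mean number of fragments per library (log axis) for the 37 members with fragments, with the value that counting error alone gives (line). Pgk1, Pgam1 and Tpi1 (red) are the 3 members over the chi-square limit, and Aldoa has the lowest CV, 0.242%, below the line.

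Beyond Gapdh, 8 members had a copy elsewhere, and 32 members had none. For Eno1, 75.1% of the coding words were shared. Its processed pseudogene Gm4735, at 80837141 to 80838442 on the plus strand of chromosome 2, had 188, 178 and 212 FPKM, and the coding copy Eno1b had 146, 142 and 142. Together they held 28.4% ± 1.23 (SD, n = 3) of the sum of 1183 FPKM. Gm4735 was highest in library 3, where Eno1 itself was lowest. Pgk1 and Pgam1 shared 100% of their coding words, yet their copies held 0.734% ± 0.0706 and 1.47% ± 0.119 of the sum (SD, n = 3). The highest of those copies were Pgk1-rs7, at 4.42, 5.08 and 4.62 FPKM, and Pgam1-ps2, at 5.62, 5.43 and 4.66. A high share of shared words therefore did not by itself go with a high share of fragments in copies.

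**Figure D4:**
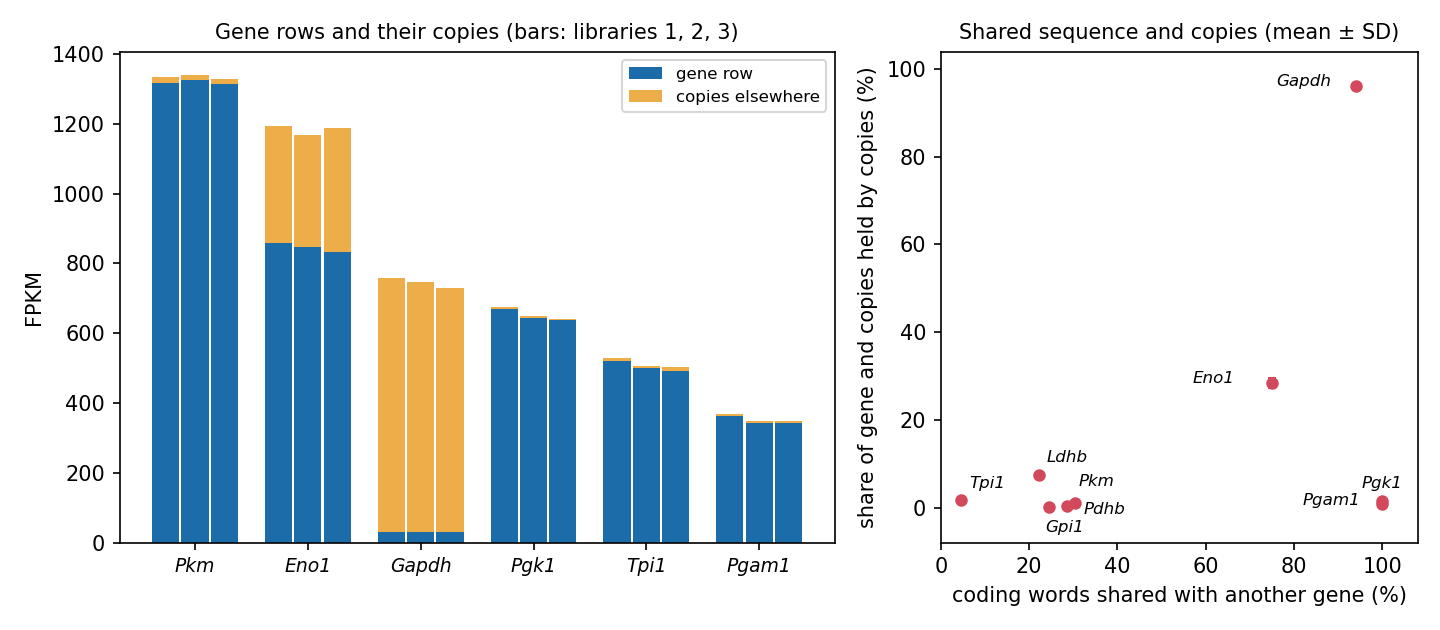
Left, FPKM of 6 gene rows (blue) and of their copies elsewhere (orange), stacked, in libraries 1, 2 and 3 from left to right. Right, share of the sum held by the copies (mean and SD, n = 3) against the percentage of coding words shared, for the 9 members with a copy; Gapdh stands at 96.1% and Eno1 at 28.4%, while Pgk1 and Pgam1, with 100% of words shared, stand at 0.734% and 1.47%.

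The remaining copies held less. Gm6560 had 15.005 FPKM on average, 1.12% of its sum with Pkm, which shares 30.4% of its coding words. Tpi-rs11 had 9.17, 5.78 and 9.92 FPKM, 1.61% of its sum with Tpi1. Gm5514 had 2.01 FPKM, 7.47% of its sum with Ldhb. The copies of Gpi1 and Pdhb held 0.218% and 0.415%. In all, 26 of the 41 members shared no coding word with another gene. Exons of 18 members overlapped those of another gene, over at most 22.0% of the exonic bases (Pklr and Hcn3). Of these members, 15 overlapped a gene on the opposite strand and 5 a gene on the same strand. Whether strand was used in counting is not given in the sources used here, so reads of opposite-strand pairs may not be told apart. On the same strand, strand cannot separate them. The largest such overlaps were Pgls with Fam129c (20.6%), Pfkfb2 with Gm29427 (17.4%) and Pkm with Gm49759 (15.3%).

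Other genes of these pathways gave the setting. Of 11 further genes that act at the same steps or are close relatives, 3 had a mean of at least 1 FPKM. Adpgk, an ADP-dependent glucokinase, had 27.0 FPKM, H6pd, which oxidizes glucose 6-phosphate in the endoplasmic reticulum, had 19.3, and Bpgm, which makes 2,3-bisphosphoglycerate, had 6.40. The transketolase relatives Tktl1 and Tktl2 had 0.521 and 0.00621 FPKM and the enolase relative Eno4 had 0.0799, while Hkdc1, G6pd2 and Pdha2 were at 0. The further subunits and the phosphatases of the pyruvate dehydrogenase complex were all at least 1 FPKM (6 of 6), from Dld at 123 FPKM to Pdp2 at 2.24. The mitochondrial pyruvate carrier had Mpc2 at 15.8 FPKM and Mpc1 at 8.67. Of 20 genes of gluconeogenesis and side branches, 14 had at least 1 FPKM. Pck2, the mitochondrial phosphoenolpyruvate carboxykinase, was highest at 123 FPKM, whereas Fbp1 and Fbp2 (fructose bisphosphatases) and G6pc (liver glucose-6-phosphatase) were at 0. Of 5 transcription factors known to act on these genes, 4 had at least 1 FPKM, with Myc highest at 246 and Mlxipl at 0.

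The promoters of the members were searched for ACGTG, the core of the hypoxia response element, and for the E-box CACGTG, which contains it. The RefSeq windows (GRCm38.p6) run from 250 bases before to 50 bases after each start, and all 41 members had at least 1. On either strand, ACGTG occurred in 22 of 64 windows (34.4%), beside 19.6% of all 32851, and CACGTG in 5 of 64 (7.81%), beside 7.15%. By gene, 18 of 41 members (43.9%) had ACGTG in a window, beside 21.8% of 27025 genes. Members had more windows per gene (64 for 41) than all genes (32851 for 27025), so shares by gene are not on equal terms. Among genes with a mean of at least 1 FPKM, 16 of 36 members had it, beside 30.02% of 9043 matched genes. For CACGTG the shares by gene were 12.2% of members and 8.09% of all genes, or 5 of 36 members beside 11.9% of genes with a mean of at least 1 FPKM. A match describes these letters only.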

How the data were processed

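UMI-RNAseq was measured in 3 libraries of NIH3T3 cells. According to the methods, UMIs on the reads were identified with UMI-tools 1.0.0, and reads were mapped with Hisat2 (2.0.4 in the submitters' processing notes), freed of duplicates by position and UMI, and counted with HTSeq 0.6.1. The authors deposited FPKM per gene, in 2 tables of identical values, with 0 columns left unused. The build and annotation used for counting are not given in the sources used here. No count model was fitted.

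Fragments were recovered as FPKM times library total times gene length (Python 3.11.15; pandas 2.3.3; numpy 2.4.6). For 99.1% of the 26193 genes with a fragment, the mean isoform length in GENCODE M21 (GRCm38) gave whole numbers within 0.001. On simulated fragments, 3 of 3 totals were recovered, and 200 of 200 genes changed by a fold of 2 and 4.92% of 13588 unchanged genes exceeded the chi-square limit. The simulation used the same gene lengths and counting error alone. It therefore checks the calculation, and cannot tell whether those lengths or that error hold for the data. Ratios were taken within libraries, with a floor of 3 fragments. Intervals are exact Clopper-Pearson 95% (scipy 1.17.1). With 13959723 to 14423209 fragments per library, 1 fragment sets the smallest step. Words that define copies were compared by the outer 31 bases at each end, and coding words over all 75 bases. Figures were drawn with matplotlib 3.10.9.

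Every member is named. Companion genes named are the highest and lowest of each list and the same-step isozymes, of which some items are not reported here, and markers named are the highest of each list. The copies of Gapdh and Eno1 were named after their values were seen. Members and lists were chosen with earlier results of these data known. Alternatives were leaving out a library, fragments not divided by length, the longest isoform, added pseudogenes or isozymes, TPM, median-of-ratios scaling, medians, pseudocounts and other limits. Eno1b was not among the added isozymes and entered only as a copy of Eno1. Adding all copies, and both Aldoa rows, was chosen after seeing the data. Protein identities were not analysed here.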

Additional observations from a re-analysis of the deposited data

How the results depend on the processing

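No paired analysis was possible because the 3 libraries share 1 condition. All 114 log2 ratios recomputed under the alternatives kept their sign, and the leading isozyme stayed the highest of its step in each. Leaving out a library, medians and pseudocounts could not change a sign, since the leader was higher in every library. Added pseudogenes, copies or isozymes left the ratio unchanged at several steps, so most of this count was fixed beforehand. Leaving out 1 library, the log2 ratio ranged from 1.02 to 1.07 for Hk1 to Hk2, 0.99 to 1.01 for Pfkl to Pfkp, 1.07 to 1.16 for Pfkfb3 to Pfkfb2, 10.74 to 11.09 for Aldoa to Aldoc, 3.67 to 3.73 for Gapdh to Gapdhs and 0.67 to 0.73 for Pdk1 to Pdk3. The gene length mattered more: not divided by length, Hk1 lay 1.13-fold above Hk2, Pfkl 1.22-fold above Pfkp and Pdk1 2.83-fold above Pdk3. With the longest isoform, Gapdh lay 4.64-fold above Gapdhs, Pgam1 156-fold above Pgam2 and Aldoa 2980-fold above Aldoc. In that setting Hk1 lay 1.46-fold above Hk2, Pfkl 2.85-fold above Pfkp and Pdk1 1.15-fold above Pdk3. Ratios over 100-fold also fell with a pseudocount of 1, to 483-fold for Aldoa, by construction. The members with a mean of at least 1 FPKM numbered 36 or 37 under every limit and scaling tried. Their percentage of the summed FPKM, 0.951% on average, was 0.949% to 0.953% without a library, 0.747% when not divided by gene length, 1.06% without mitochondrial and short genes, and 1.11% with copies added. Members over the chi-square limit numbered 0 without library 1 (6.95% of all genes) and 4 without library 2 or library 3, so that count rests on library 1. Mean FPKM moved by more than 1 SD in 37 members as TPM, which multiplies all genes by 1.43 to 1.46, and in 36 with the longest isoform. Protein identities were not run. Depth limits Aldoc, Pgam2 and Gapdhs, with at most 40 fragments per library, and the members at 0.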
